A study of Rattus norvegicus with 18 samples.

Results

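Immediate early genes are switched on within minutes of a stimulus, from factors already present in the cell and without new protein synthesis. Calcium entry and MAP kinase signalling reach them mainly through serum response factor, which binds the CArG box, and through CREB, which binds the cyclic AMP response element. Many of their products are transcription factors themselves, among them the FOS and JUN proteins that pair into AP-1, the EGR zinc finger proteins and the NR4A orphan nuclear receptors. In heart muscle cells they are classical early markers of mechanical and hormonal load, and most of the transcripts are short-lived.

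A list of 37 immediate early and activity-induced genes was followed in cultured ventricular myocytes of newborn rats. A gene was taken as measured where the array platform's annotation names it alone on a transcript cluster, and the brightest such cluster stood for the gene. This gave 31 genes, out of 36685 clusters on the array and 14824 clusters with exactly 1 gene symbol. Fosl2, Egr3, Nr4a3, Btg2, Crem and Rhob were not named on such a cluster and have no value here. The rule for finding a gene on the array used no difference between groups, while the list was drawn up with earlier results of these data known.

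The study asked how stretch, rapid pacing and the sodium-calcium exchanger (NCX) act on early remodelling. There were 18 arrays, 3 labelled as biological replicates in each of 6 groups, and all cells were neonatal rat ventricular cardiomyocytes, with no genetic change in the labels, kept 3 days in culture before treatment. In the stretch experiment cells were given 20% biaxial stretch for 24 h with 10 µM KB-R7934 (stretch + KB-R7934), the same stretch without it (stretch), or left unstretched (static control). In the tachycardia experiment, pacing lasted 3 h and was at 8 Hz with KB-R7934 (tachycardia + KB-R7934), at 8 Hz without it (tachycardia), or at 1 Hz (1 Hz control). KB-R7934, as the sample labels spell it, is the study's inhibitor of reverse-mode NCX. No array came from unstimulated cells given the inhibitor, so its effect is read only on top of a trigger. The experiments differed in trigger, duration, control and culture surface together, and these cannot be told apart between them. The sample titles list 2 to 6 technical replicates for each array and do not say how these were combined. Replicates 1, 2 and 3 have 4, 3 and 6 listed in every group of the tachycardia experiment, and 4, 2 and 2 in static control and stretch. In stretch + KB-R7934 each array has 2 listed. The culture was enriched in myocytes and not pure, and in such bulk RNA fewer cells of a type and less RNA per cell cannot be told apart.

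Markers of the labelled cell type gave signal, as did those of other cells. The 9 cardiomyocyte markers found of 13 fixed had mean log2 signals of 10.4 (Myl7) to 12.8 (Tnnt2), the 10 fibroblast markers 7.16 (Tcf21) to 11.99 (Fn1), and the 13 leukocyte markers found 5.05 to 8.58. Levels of different clusters cannot be set against each other on an array, so these values do not give the purity of the culture. Array medians ran from 5.26 to 5.34, which the normalisation before deposit may have set.

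The elements named above were counted in the promoters of the listed genes, as background to the values. Of the 31 genes, 23 had an entry in RefSeq's rat promoter table (build GRCr8, 250 bases before to 50 after the start of the gene). The CArG box, searched on both strands, was in 5 of the 23 (21.7%), namely Egr1, Egr2, Klf6, Zfp36 and Srf, against 1.64% of all 33469 promoters. The CRE core TGACGTCA was in 4 of the 23 (17.4%), Jund, Ier2, Maff and Plk2, against 1.83% of all. The shorter CRE form TGACG, which every core also contains, was in 17 of 23 (73.9%) against 21.2%, and the AP-1 element TGANTCA was in 0 of 23 against 7.33%. A match here is a description of letters in a window and not an occupied site. The promoters of Egr1 and Nr4a1 are printed because these are the genes with an entry among those followed in every comparison, and they differ in which element they carry. Capitals mark CArG boxes and the shorter CRE form, which reads CGTCA where it lies on the opposite strand.
Egr1 promoter, chr18:26736828-26737127, plus strand: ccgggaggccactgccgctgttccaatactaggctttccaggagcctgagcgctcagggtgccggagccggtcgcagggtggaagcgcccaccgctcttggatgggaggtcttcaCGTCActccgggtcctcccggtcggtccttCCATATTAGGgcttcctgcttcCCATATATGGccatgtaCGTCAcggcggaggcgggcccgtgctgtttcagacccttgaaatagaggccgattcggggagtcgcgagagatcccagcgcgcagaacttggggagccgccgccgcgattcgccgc
Nr4a1 promoter, chr7:134259888-134260187, plus strand: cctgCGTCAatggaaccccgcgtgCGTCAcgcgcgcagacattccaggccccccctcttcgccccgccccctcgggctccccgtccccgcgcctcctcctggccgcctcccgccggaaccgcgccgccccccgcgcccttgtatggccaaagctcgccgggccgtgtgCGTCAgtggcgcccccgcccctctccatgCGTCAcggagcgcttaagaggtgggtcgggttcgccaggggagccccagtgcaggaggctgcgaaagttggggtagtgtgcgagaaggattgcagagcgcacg
The Egr1 window holds 2 CArG boxes, at 105 to 96 and 83 to 74 bases before the start, and 2 short CRE forms. The Nr4a1 window holds 4 short CRE forms and no CArG box.

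In the following, a difference is tested group minus its control on the log2 scale and is followed by the standard error (SE) of limma's fit over the 9 arrays of an experiment. A gene is called higher or lower where the unadjusted p was under 0.05 and the change was at least 1.2-fold. The adjusted p is limma's with Benjamini-Hochberg adjustment over all 36685 clusters. Nothing says that the replicates of a group came from separate animals beyond the label "biological", so the p-values measure the spread between these arrays.

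After 24 h of stretch the immediate early genes stood lower than in static cells. Of the 31 genes, 26 had a lower mean in stretched cells, where 51.1% of all clusters did, and 15 were called lower, against 4.33% of clusters. The number called higher was 0, against 3.12% of clusters, and it was 2 without stretch replicate 3. The median difference of the 31 genes was -0.21, and that of all clusters was -0.005. In 14 of the 15 called genes, Plk3 being the exception, the 3 stretched arrays lay wholly below the 3 static arrays, as they did for 7.02% of clusters. At an adjusted p under 0.05 limma passed 0 of the 31 genes and 0% of clusters, and 15 of the 31 had an unadjusted p under 0.05. With all 18 arrays in 1 fit 11 of the 15 were called, the calls of Egr2, Csrnp1, Ier2 and Plk3 having ended. In that fit Myc passed the adjusted threshold by limma (adjusted p = 0.0487), while Fos had an adjusted p of 0.466. The fit takes its spread from both experiments together, and these differed. Within groups the SD of Myc was 0.32 in the stretch and 0.19 in the tachycardia experiment, and that of Fos 0.14 and 0.59.

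All 3 measured members of the FOS side of AP-1 were called lower. Fos (cluster 17817508), the founding immediate early gene, stood at 6.20, 6.12 and 6.35 log2 units in stretched cells and at 6.99, 7.23 and 7.31 in static cells. The highest stretched array was below the lowest static array, and the difference was -0.95 (SE 0.12, adjusted p = 0.117). This was the smallest p-value of the 31 genes in this comparison. Fosb stood at 5.91, 5.80 and 5.73 in stretched cells against 6.26, 6.69 and 6.48 in static cells, a difference of -0.66 (SE 0.17, adjusted p = 0.394). Fosl1, which encodes the FRA1 protein, had 7.19, 6.33 and 6.14 in stretched cells and 7.51, 7.77 and 7.88 in static cells. Its groups did not overlap either, but stretch replicate 1 was closer to the static arrays than to the other two stretched arrays (difference -1.16, SE 0.24, adjusted p = 0.285).

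The JUN family was not uniform. Junb was called lower, at 6.71, 6.46 and 6.31 in stretched cells against 6.98, 7.03 and 7.11 in static cells (-0.54, SE 0.12, adjusted p = 0.322). Jun itself had 8.93, 9.12 and 8.70 in stretched cells and 9.01, 9.25 and 8.85 in static cells. These groups overlapped and the difference was -0.12 (SE 0.16, 95% interval -0.48 to 0.24, adjusted p = 0.922). Jund, the family member that most cells express at a steady level, differed by -0.01 (SE 0.14). Maff, a small MAF protein that pairs with other bZIP factors, was called lower, with 7.22, 7.04 and 6.78 in stretched cells against 7.49, 7.64 and 7.62 in static cells (-0.57, SE 0.15, adjusted p = 0.402).

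Among the EGR genes Egr1 and Egr2 were called lower and Egr4 was not. Egr1 had 10.95, 10.89 and 11.10 in stretched cells and 11.37, 11.37 and 11.66 in static cells, which did not overlap (-0.49, SE 0.18, adjusted p = 0.55). The call of Egr1 ended without stretch replicate 1, stretch replicate 2 or static control replicate 3, with differences of -0.47, -0.44 and -0.39. Egr2 had 8.02, 8.00 and 8.29 in stretched cells and 8.75, 8.77 and 8.89 in static cells (-0.70, SE 0.13, adjusted p = 0.244). Egr4 had 5.14, 5.49 and 5.26 in stretched cells against 5.02, 5.30 and 4.82 in static cells, with overlap (0.25, SE 0.17, adjusted p = 0.795).

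Nr4a1, an orphan nuclear receptor also called Nur77, stood at 0.483 times its static signal. The stretched arrays read 6.73, 6.57 and 6.56 and the static arrays 7.54, 7.75 and 7.72. The groups were separated by more than either group's range, and the difference was -1.05 (SE 0.19, adjusted p = 0.224). Its relative Nr4a2 was not called (-0.15, SE 0.22), and its static arrays alone spanned 6.31 to 7.20. Myc, the growth-promoting bHLH factor, had 8.26, 8.22 and 8.30 in stretched cells and 9.10, 9.86 and 9.38 in static cells. The stretched arrays were nearly equal, while the static arrays spread over 0.76 log2 units, and the difference of -1.18 (SE 0.23, adjusted p = 0.25) was the largest of the 31 genes. Arc, which neurons induce with synaptic activity, had 5.95, 5.68 and 5.60 in stretched cells against 6.01, 5.81 and 6.05 in static cells, which overlapped (-0.21, SE 0.12, adjusted p = 0.757). Arc was called lower, at -0.32, only without stretch replicate 1.

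The remaining called genes act in RNA decay, growth arrest and stress. Zfp36, whose product tristetraprolin destabilises AU-rich transcripts including those of cytokines, had 9.42, 9.31 and 9.45 in stretched cells against 9.92, 10.18 and 10.29 in static cells (-0.74, SE 0.14, adjusted p = 0.224). Gadd45a, a growth arrest and DNA damage inducible gene, had 8.93, 9.08 and 8.78 in stretched cells and 9.41, 10.20 and 9.67 in static cells (-0.83, SE 0.21, adjusted p = 0.394). Both were wholly below static control, whereas Gadd45b overlapped it (-0.08, SE 0.14). Csrnp1, a nuclear protein of the cysteine and serine rich family, had 6.19, 5.93 and 5.71 in stretched cells and 6.34, 6.63 and 6.57 in static cells (-0.57, SE 0.16, adjusted p = 0.428). Ier3, an early gene tied to survival signalling, had 10.40, 10.05 and 10.12 in stretched cells and 10.54, 10.57 and 10.96 in static cells (-0.50, SE 0.17, adjusted p = 0.517), and its call ended without stretch replicate 2 (-0.43) or static control replicate 3 (-0.37). Ier2 at -0.46 and the polo-like kinase Plk3 at -0.43 completed the 15. The 16 genes not called ran from -0.21 in Klf10 to 0.30 in Plk2, and in all 16 the groups overlapped. They included the 4 Krüppel-like factors, Srf, Npas4, Sik1 and Rgs2.

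**Figure D1:**
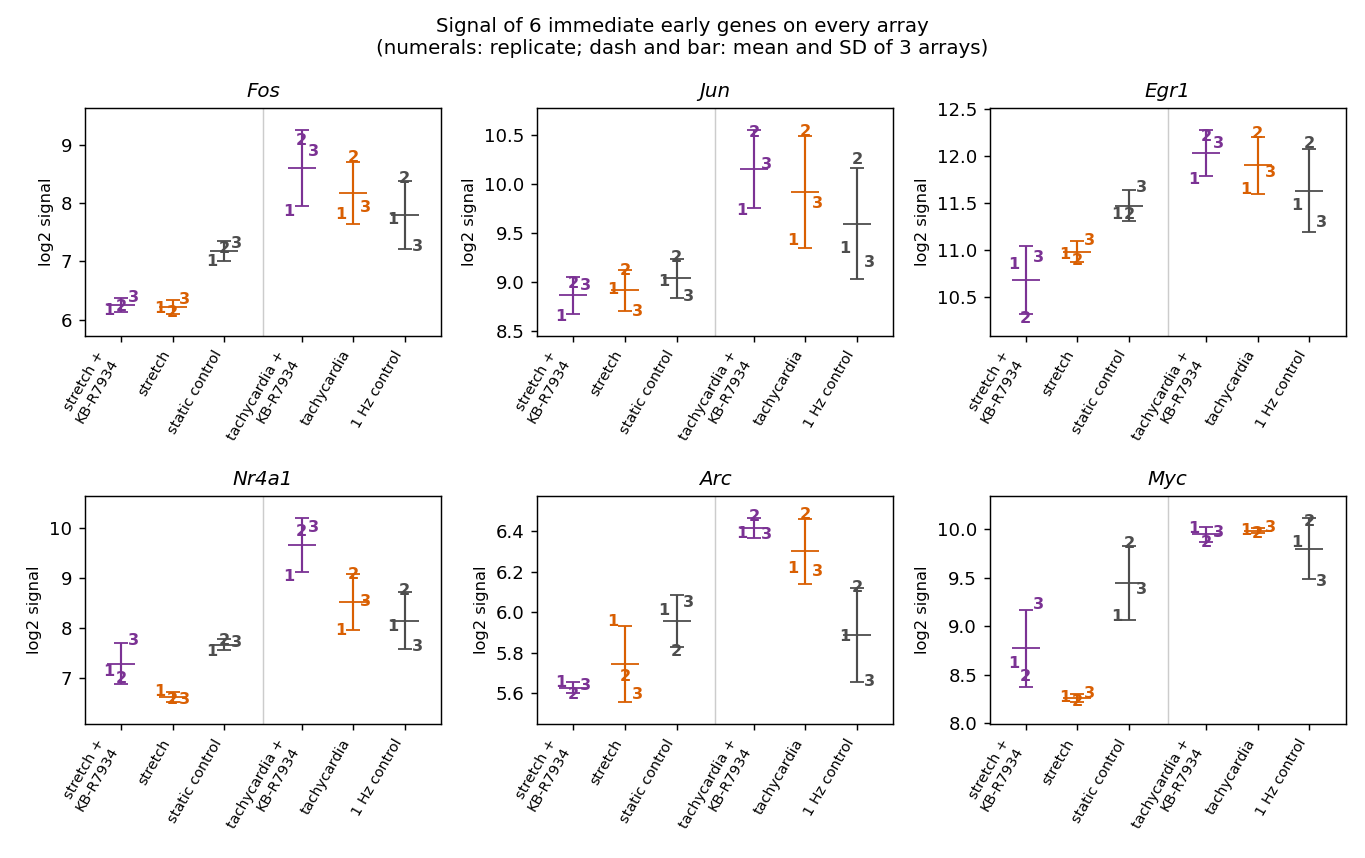
Log2 array signal (y axis) of Fos, Jun, Egr1, Nr4a1, Arc and Myc in each of the 6 groups (x axis), with every array drawn as its replicate number and the mean with SD of 3 arrays as a dash with a bar. Stretched arrays lie below static control for Fos, Egr1, Nr4a1 and Myc, and replicate 2 is high in Fos, Jun and Egr1 in each group of the tachycardia experiment.

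Genes around the listed ones were counted from lists of the same pathway. Of all clusters 4.33% were called lower and 3.12% higher with stretch. Of 16 AP-1 and bZIP partners listed, with EGR corepressors counted among them, 12 were found. With stretch 4 were called lower and 0 higher, with a list median of -0.25. They were Mafg (-0.84), Bach1 (-0.99), Cebpb (-0.69) and Atf3 (-1.02), a stress-induced repressor whose stretched mean was 8.04 against 9.06 in static cells. Of 21 induced feedback regulators 15 were found and 6 were called lower, among them the MAP kinase phosphatases Dusp2 (-0.86), Dusp6 (-0.40) and Dusp4 (-0.65) and the NF-kappaB inhibitor Nfkbia (-0.57). Of 28 secreted and other early effectors 19 were found, of which 3 were called lower (Atf5 at -0.97, Bhlhe40 at -0.42 and Lif at -0.81) and 2 higher. Those 2 were Ccn2, known as connective tissue growth factor, at 0.55 and the growth factor Hbegf at 0.65, with overlapping groups in both. Of 23 upstream factors and coactivators 10 were found, and 0 were called in either direction. Leukocyte markers had 0 of 13 called with stretch and a summed linear signal of 1255 to 4751 in stretched cells against 1597 to 3776 in static cells. Cardiomyocyte markers had higher means in 8 of 9 with 1 called higher (median 0.10). Fibroblast markers had higher means in 9 of 10 (median 0.19) and smooth muscle markers in 3 of 3 found (median 0.31), with 0 called in both lists. Of all clusters 48.9% had a higher mean. The part of cell composition in the result was not tested.

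With KB-R7934 on top of stretch the genes had no common direction. Compared with stretch alone 16 had a higher and 15 a lower mean, with a median of 0.02 against 0.01 for all clusters. There were 7 calls, 5 higher, against 4.6% of clusters called higher, and 2 lower, against 4.52% called lower. With all 18 arrays in 1 fit there were 5 calls, 2 higher and 3 lower, of which 3 were among the 7. The groups were apart upward in 5 genes, against 7.9% of clusters, and downward in 2, against 7.3%. At an adjusted p under 0.05 limma passed 0 of the 31 genes, at a smallest value of 0.301, and 0.00545% of clusters.

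Nr4a1 had the smallest p-value of the 31. It stood at 7.13, 6.99 and 7.76 in stretch + KB-R7934 against 6.73, 6.57 and 6.56 in stretch, with all 3 arrays above (0.67, SE 0.19, adjusted p = 0.301). Junb was at 6.81, 6.99 and 6.85 in stretch + KB-R7934 against 6.71, 6.46 and 6.31 in stretch, also without overlap (0.39, SE 0.12, adjusted p = 0.358). Rgs2, a GTPase activator that limits Gq signalling, had 9.50, 9.48 and 10.01 in stretch + KB-R7934 and 8.98, 8.88 and 9.35 in stretch (0.59, SE 0.20, adjusted p = 0.392). Maff (0.46, SE 0.15, adjusted p = 0.378) and Fosb (0.40, SE 0.17, adjusted p = 0.514) were the other genes called higher. The call of Rgs2 ended without stretch replicate 2 (0.50) or stretch + KB-R7934 replicate 3 (0.42), that of Maff without stretch replicate 3 (0.34) or stretch + KB-R7934 replicate 1 (0.37), and that of Fosb in 6 of the 9 fits with an array left out, with a lowest value of 0.22 without stretch + KB-R7934 replicate 3.

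Gadd45b, which curbs JNK signalling, was called lower. The arrays read 8.60, 8.71 and 8.60 in stretch + KB-R7934 and 9.16, 9.38 and 8.79 in stretch, without overlap (-0.48, SE 0.14, adjusted p = 0.335). Srf, the gene of serum response factor, was called lower at -0.29 (SE 0.13, adjusted p = 0.505), with overlapping groups and with the call ending in 7 of the 9 fits with an array left out. Myc had 8.61, 8.48 and 9.23 in stretch + KB-R7934 against 8.26, 8.22 and 8.30 in stretch. All 3 were above, but the difference of 0.51 was not called (SE 0.23, 95% interval -0.01 to 1.03, adjusted p = 0.527). It was called in 6 of 19 alternatives. These were the fits with static control replicate 1, static control replicate 2 or stretch + KB-R7934 replicate 2 left out, 18 arrays in 1 fit, the 2 groups alone and the trend and robust options. Plk2, a polo-like kinase, had the lowest difference of the 31, with 10.01, 10.13 and 9.89 in stretch + KB-R7934 against 11.07, 10.83 and 10.05 in stretch. The groups overlapped through stretch replicate 3 and the difference of -0.64 was just short of a call (SE 0.28, adjusted p = 0.519), while 18 arrays in 1 fit, the 2 groups alone and the trend and robust options each called it lower.

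Genes called lower with stretch had differences of both signs with the inhibitor. Fosl1 differed by 0.17 (SE 0.24), Zfp36 by 0.17 (SE 0.14), Gadd45a by -0.05 (SE 0.21) and Egr2 by -0.19 (SE 0.13), none of them called. Fos had 6.15, 6.23 and 6.39 in stretch + KB-R7934 against 6.20, 6.12 and 6.35 in stretch, arrays that interleave (0.03, SE 0.12, 95% interval -0.25 to 0.31). Egr1 had 10.85, 10.27 and 10.92 in stretch + KB-R7934 and 10.95, 10.89 and 11.10 in stretch, which overlapped (-0.30, SE 0.18, adjusted p = 0.642). Of the genes not called with stretch, Jun differed by -0.05 (SE 0.16) and Arc by -0.12 (SE 0.12), with 5.65, 5.60 and 5.64 for Arc in stretch + KB-R7934. The comparison with stretch and the comparison of stretch with static control share the stretch arrays, so low stretch arrays lower the one and raise the other.

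Set against static control, the cells given stretch and KB-R7934 also had mostly lower values, in a comparison that shares the static arrays with that of stretch alone. Of 31 genes 25 had a lower mean, the median was -0.27, and 12 were called lower, against 5.38% of clusters, and 1 higher, against 4.79%. The arrays lay wholly below static control in 10 genes, against 8.66% of clusters. Fos was the gene that passed the adjusted threshold, with a difference of -0.92 (SE 0.12, adjusted p = 0.0449), where 0.164% of clusters passed it. Its adjusted p was 0.29 with all 18 arrays in 1 fit and 0.116 with the 2 groups alone. The calls of Klf10, Rgs2 and Plk3 ended with all 18 arrays in 1 fit. Leukocyte markers were lower in 13 of 13 and called lower in 9 in the same comparison, with a list median of -0.92 and a summed linear signal of 715 to 1384 in stretch + KB-R7934 against 1597 to 3776 in static control. Their part in the members' values was not tested.

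In that comparison Egr1 and Egr2 were called lower, Egr1 by -0.79 (SE 0.18, adjusted p = 0.151) and Egr2 by -0.88 (SE 0.13, adjusted p = 0.0533). Egr2 had 7.99, 7.69 and 8.06 in stretch + KB-R7934 against 8.75, 8.77 and 8.89 in static control, without overlap. Ier2 (-0.78), Plk3 (-0.72), Fosl1 (-0.99), Gadd45a (-0.88), Zfp36 (-0.57), Gadd45b (-0.55), Myc (-0.67), Arc (-0.33) and Klf10 (-0.44) were also called lower. Of the always followed genes Jun was not called (-0.17, SE 0.16), nor was Nr4a1 (-0.38, SE 0.19, adjusted p = 0.533), which was called, at -0.61, without stretch + KB-R7934 replicate 3. Rgs2 was called higher, with 9.50, 9.48 and 10.01 in stretch + KB-R7934 against 9.38, 8.85 and 9.23 in static control (0.51, SE 0.20, adjusted p = 0.408). The calls of Myc, Arc and Rgs2 each ended with 1 of several arrays left out, at values as low in size as -0.47 without static control replicate 2 for Myc, -0.28 without static control replicate 3 for Arc and 0.34 without stretch + KB-R7934 replicate 3 for Rgs2.

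Some other early genes and cell markers were called with the inhibitor on stretch. Of all clusters 4.6% were called higher and 4.52% lower in that comparison. At an adjusted p under 0.05 limma passed 0 genes of these lists. Among the effectors 5 were called higher and 4 lower compared with stretch, the smallest p-values being those of Bhlhe40 (0.88), Ccn1 (-0.96), the small GTPase Gem (0.92) and Hbegf (-0.96). Feedback regulators had 3 called higher and 2 lower, and AP-1 partners with EGR corepressors 2 higher and 0 lower. Leukocyte markers were lower in 13 of 13 and called lower in 10, with a list median of -0.69 and a summed linear signal of 715 to 1384 in stretch + KB-R7934 against 1255 to 4751 in stretch. The lysozyme gene Lyz2 stood at -2.59 and Csf1r, the receptor that macrophages depend on, at -1.45. Of 5 proliferation markers 2 were found and both were called lower (median -0.82), fibroblast markers had 1 called higher and 2 lower of 10, cardiomyocyte markers 1 higher and 1 lower of 9, and endothelial and smooth muscle markers 1 lower each. The part of these cells in the members' values was not tested.

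**Figure D2:**
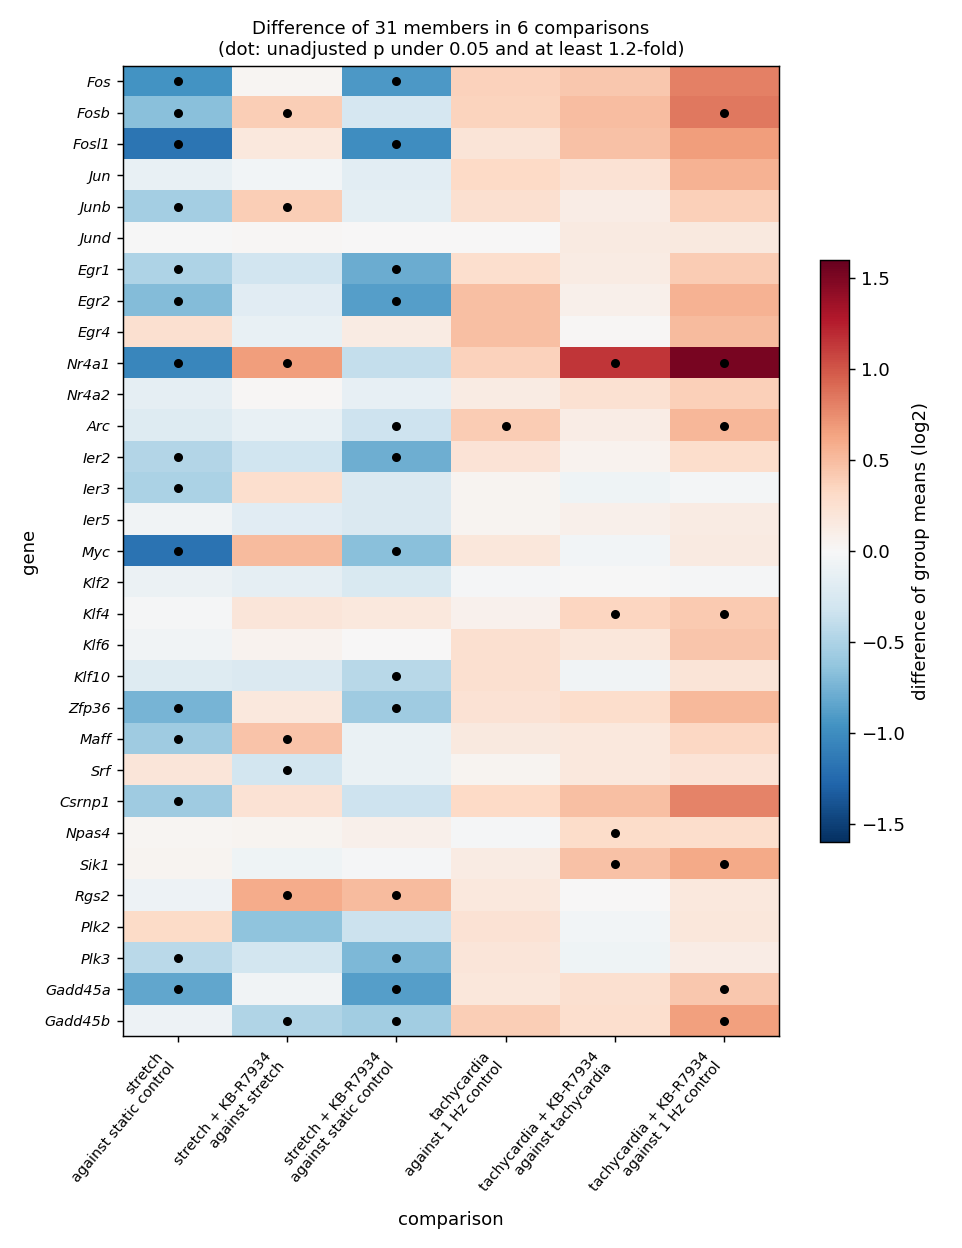
Difference of group means on the log2 scale (colour, red higher and blue lower in the first-named group) for the 31 genes (rows) in 6 comparisons (columns), with a dot where the unadjusted p was under 0.05 and the change at least 1.2-fold. The column for stretch has 15 dots, all lower, and both tachycardia columns against the 1 Hz control are mostly red with 1 and 7 dots.

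After 3 h of tachycardia most of the genes had somewhat higher means than at 1 Hz, and few differences exceeded the spread between arrays. Of 31 genes 29 had a higher mean, where 49.5% of clusters did, with a median of 0.22 against 0.00 over all clusters (-0.00177). The median was 0.045 with 22 genes higher without tachycardia replicate 2, 0.058 with 21 higher without 1 Hz control replicate 3, 0.35 without tachycardia replicate 1 and 0.42 without 1 Hz control replicate 2. The count of genes called was 1, higher, against 2.09% of clusters called higher, and 1 gene was apart upward, against 4.39% of clusters. At an adjusted p under 0.05 limma passed 0 of the 31 genes and 0% of clusters, with 1 gene at an unadjusted p under 0.05.

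Arc was that gene. It had 6.21, 6.48 and 6.20 in tachycardia and 5.88, 6.12 and 5.66 in 1 Hz control, with the lowest tachycardia array just above the highest control array. The difference was 0.41 (SE 0.14, adjusted p = 1.00 by limma). The call ended without tachycardia replicate 2 (0.32) or 1 Hz control replicate 3 (0.30).

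For the other genes followed throughout, the groups overlapped. Fos had 7.80, 8.78 and 7.93 in tachycardia against 7.72, 8.42 and 7.26 in 1 Hz control (0.37, SE 0.41, 95% interval -0.55 to 1.30). Nr4a1 had 7.95, 9.08 and 8.53 in tachycardia against 8.04, 8.76 and 7.64 in 1 Hz control (0.37, SE 0.38). Egr1 had 11.65, 12.24 and 11.83 in tachycardia against 11.47, 12.13 and 11.29 in 1 Hz control (0.27, SE 0.25). In each of these genes replicate 2 was the highest array of both groups. Jun differed by 0.32 (SE 0.36) and Myc by 0.19 (SE 0.15), and the 3 tachycardia arrays of Myc, at 9.98, 9.96 and 10.02, lay inside the range of its controls, 9.46 to 10.08. Egr1 was called, at 0.52, without 1 Hz control replicate 2.

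The common level of the 31 genes showed the same pattern. As the median deviation from the experiment's mean, tachycardia arrays 1, 2 and 3 stood at -0.20, 0.31 and -0.06 and 1 Hz control arrays at -0.32, 0.14 and -0.53. Replicate 2 was highest in each group, and 18 of the 31 genes had their lowest value of the 9 arrays in 1 Hz control replicate 3. The spread within groups was accordingly wider than in the stretch experiment, with a median SD of 0.32 for the 31 genes against 0.21 for all clusters, and 0.21 against 0.19 in the stretch experiment. Fosl1, at 8.26, 10.06 and 8.91 in tachycardia and 8.51, 9.89 and 8.20 in 1 Hz control, had the widest spread, an SD of 0.82. The count of calls was 5 without 1 Hz control replicate 2, 3 without tachycardia replicate 1 and 0 without tachycardia replicate 2 or 1 Hz control replicate 3. With the replicate number as a block, a pairing the labels do not state, it was 4, with Egr2, Egr4 and Gadd45b beside Arc.

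**Figure D3:**
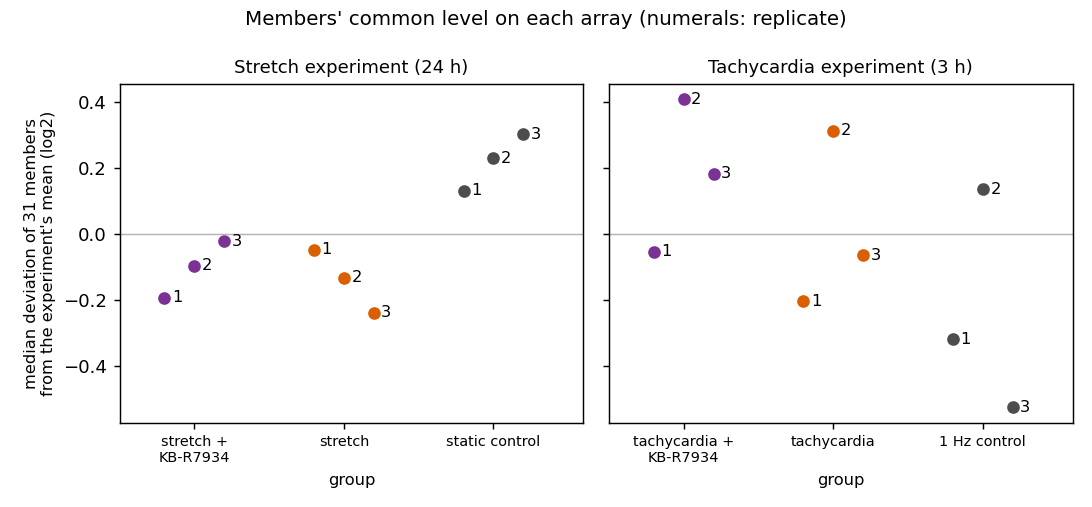
Median over the 31 genes of the deviation from the mean of an experiment's 9 arrays, on the log2 scale (y axis), for each array (points numbered by replicate) of the 6 groups (x axis). The 3 stretch arrays lie between -0.24 and -0.05, below static control at 0.13 to 0.30, while the arrays of the tachycardia experiment overlap between groups.

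Genes of the pathway lists with tachycardia were called in small numbers. Of all clusters 49.5% had a higher mean and 2.09% were called higher in this comparison. At an adjusted p under 0.05 limma passed 0 genes of the pathway lists. Among effectors 19 of 19 had higher means with 2 called, the neurotrophin Bdnf (0.39) and Ccn2 (0.27). Whether the count of 19 depends on single arrays, as the median of the immediate early genes did, was not tested. In the list of AP-1 partners and EGR corepressors 2 of 12 were called higher, the corepressor Nab2 (0.35) and Nfil3 (0.43). Among feedback regulators 1 of 15 was called higher, the phosphatase Dusp10 (0.44). Upstream factors had 0 of 10 called. Leukocyte markers had 0 of 13 called, with a summed linear signal of 2295 to 3220 in tachycardia against 2249 to 3505 in 1 Hz control.

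With KB-R7934 on top of tachycardia Nr4a1, Sik1, Klf4 and Npas4 were called higher, and the other genes were not called. Of 31 genes 25 had a higher mean, where 50.6% of clusters did, with a median of 0.17 against 0.00 over all clusters (0.00264). The median was 0.069 with 19 genes higher without tachycardia replicate 1, 0.087 with 22 higher without tachycardia + KB-R7934 replicate 2, 0.27 without tachycardia + KB-R7934 replicate 1 and 0.32 without tachycardia replicate 2. There were 4 calls, all higher, against 3.27% of clusters, and 4 genes were apart upward, against 5.57% of clusters. These were not the same genes, as Nr4a1 was called and overlapped, and Srf was apart and not called. At an adjusted p under 0.05 limma passed 0 of the 31 genes and 0% of clusters, with 4 genes at an unadjusted p under 0.05.

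Nr4a1 had 9.04, 9.93 and 10.02 in tachycardia + KB-R7934 against 7.95, 9.08 and 8.53 in tachycardia, a difference of 1.14 (SE 0.38, adjusted p = 0.754). This was 2.21-fold, the largest difference of the 31 genes here, although replicate 1 with the inhibitor fell just below replicate 2 without it. The call ended without tachycardia replicate 1 (0.86), tachycardia + KB-R7934 replicate 2 (1.01) or tachycardia + KB-R7934 replicate 3 (0.96). Sik1, a salt-inducible kinase that restrains CREB coactivators, had 7.50, 7.73 and 7.71 in tachycardia + KB-R7934 and 6.96, 7.34 and 7.22 in tachycardia, without overlap (0.47, SE 0.18, adjusted p = 0.789). Klf4, a Krüppel-like factor of growth arrest and differentiation, had 9.01, 9.14 and 9.13 in tachycardia + KB-R7934 and 8.69, 8.63 and 8.90 in tachycardia (0.35, SE 0.11, adjusted p = 0.722), a call that held with each of the 9 arrays left out. Npas4, a calcium-dependent factor of neurons, had 4.22, 4.27 and 4.13 in tachycardia + KB-R7934 and 4.06, 3.96 and 3.71 in tachycardia (0.30, SE 0.12, adjusted p = 0.812). Its signal was low, with a mean of 3.88 over the 18 arrays, at percentile 26.4 of all clusters. The call of Sik1 ended without tachycardia replicate 1 (0.37) and 2 of the inhibitor arrays, and that of Npas4 in 5 of the 9 fits with an array left out, at 0.20 without tachycardia replicate 3. With the replicate number as a block, Zfp36 at 0.28 and Csrnp1 at 0.48 were called higher too, making 6.

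The other genes followed throughout overlapped between the groups. Fos had 7.86, 9.08 and 8.88 in tachycardia + KB-R7934 against 7.80, 8.78 and 7.93 in tachycardia (0.43, SE 0.41). Arc had 6.39, 6.47 and 6.38 in tachycardia + KB-R7934 against 6.21, 6.48 and 6.20 in tachycardia (0.12, SE 0.14). Jun differed by 0.23 (SE 0.36), Egr1 by 0.13 (SE 0.25) and Myc by -0.04 (SE 0.15). The 95% interval of Jun ran from -0.58 to 1.05 and so held changes of either sign.

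Against the 1 Hz control, whose arrays also served the comparison with tachycardia, the cells given tachycardia and KB-R7934 had 7 genes called higher, against 4.7% of clusters, and 29 of 31 higher means with a median of 0.40, which was 0.23 without 1 Hz control replicate 3. In 9 genes the groups were apart upward, against 8.32% of clusters, and limma passed 0 of 31 and 0% of clusters at an adjusted p under 0.05, with 7 genes at an unadjusted p under 0.05. Nr4a1 had 9.04, 9.93 and 10.02 in tachycardia + KB-R7934 against 8.04, 8.76 and 7.64 in 1 Hz control, without overlap, and was 2.86-fold higher (1.51, SE 0.38, adjusted p = 0.355). Sik1 (0.60, SE 0.18), Arc (0.53, SE 0.14) and Klf4 (0.41, SE 0.11) were called higher with each of the 9 arrays left out, as Nr4a1 was. Fosb (0.84, SE 0.33), Gadd45b (0.66, SE 0.24) and Gadd45a (0.43, SE 0.18) were called, but each call ended without 1 Hz control replicate 3, at 0.52, 0.55 and 0.38, and without others. Fos stood at 0.81 (SE 0.41), Jun at 0.56 (SE 0.36), Egr1 at 0.40 (SE 0.25) and Myc at 0.15 (SE 0.15), none of them called. Fos, Jun and Egr1 were called without 1 Hz control replicate 2, at 1.12, 0.88 and 0.65. The count of calls was then 16, against 11 without tachycardia + KB-R7934 replicate 1 and 4 without tachycardia + KB-R7934 replicate 2 or 1 Hz control replicate 3. A replicate block, a pairing the labels do not state, gave 19 calls, all higher. It added 12 genes, among them Fos, Jun and Egr1, and limma passed 0 genes at an adjusted p under 0.05 with it.

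Among the pathway lists the effectors had 3 called higher and 4 lower with KB-R7934 on tachycardia. The smallest p-values were those of Id1 (-0.75), an inhibitor of bHLH factors, Gem (0.96), the vasoconstrictor peptide gene Edn1 (-0.88) and Nppb (0.30), the gene of the natriuretic peptide BNP. Feedback regulators had 5 called higher and 2 lower and upstream factors 0 higher and 1 lower, Creb1 itself (-0.34). Of all clusters, 3.27% were called higher and 2.5% lower in this comparison. Leukocyte markers had lower means in 12 of 13 with 6 called lower, and a summed linear signal of 1472 to 2382 in tachycardia + KB-R7934 against 2295 to 3220 in tachycardia. Against 1 Hz control 12 of 13 were lower and 6 called lower, at 2249 to 3505 in that control, where 3.95% of clusters were called lower. The part of these cells in the members' values was not tested.

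The effects of both triggers were set against each other in 1 fit of all 18 arrays. The effect of stretch minus that of tachycardia was negative in 28 of 31 genes, with a median of -0.55 against -0.01 over all clusters. At an unadjusted p under 0.05 it was negative in 13 genes, against 3.42% of clusters, and positive in 0. At an adjusted p under 0.05 limma passed 0 of 31 genes and 0% of clusters, with a smallest value of 0.331. Myc had the smallest p-value, with -1.18 for stretch and 0.19 for tachycardia (difference -1.37, SE 0.29, adjusted p = 0.331). Arc, called higher with tachycardia and not called with stretch, differed by -0.62 (SE 0.18, adjusted p = 0.593), Nr4a1 by -1.42 (SE 0.46, adjusted p = 0.65) and Fos by -1.33 (SE 0.45, adjusted p = 0.692). Egr1 differed by -0.76 (SE 0.32), while the difference of -0.44 for Jun was within its error (SE 0.42). The count of 13 became 7 without 1 Hz control replicate 3 and 8 without tachycardia replicate 2. The experiments share no arrays, but they differ in duration and culture as well as in trigger.

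**Figure D4:**
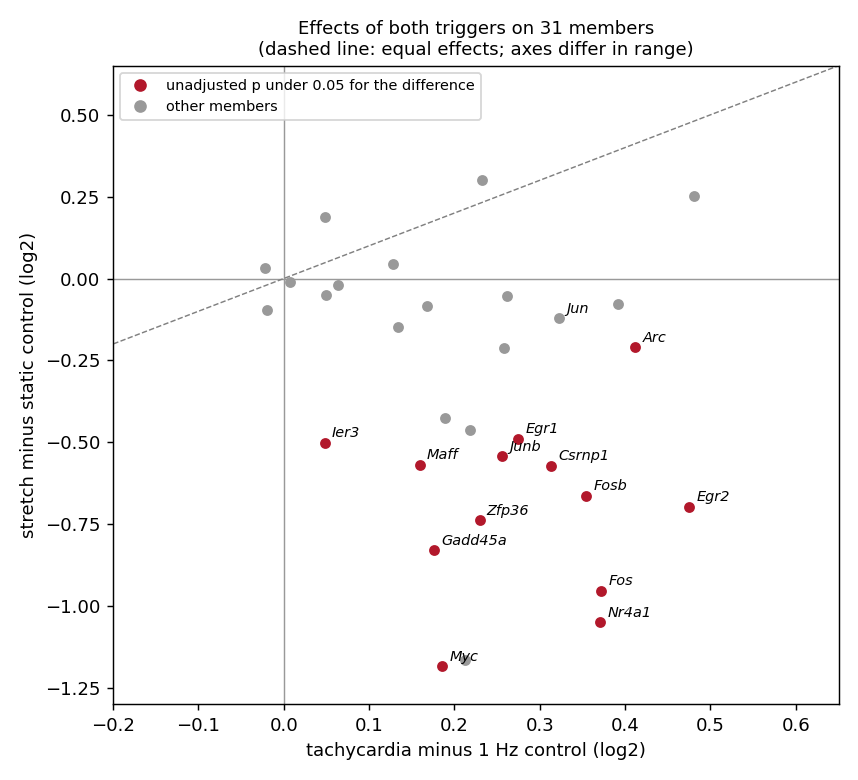
Stretch minus static control (y axis, log2) against tachycardia minus 1 Hz control (x axis, log2) for the 31 genes, with the dashed line where both effects are equal and the 13 genes with an unadjusted p under 0.05 for the difference in red. All 13 lie below the line, from Ier3 near 0.05 on the x axis to Egr2 at 0.48.

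The effect of KB-R7934 on stretch minus its effect on tachycardia was negative in 26 of 31 genes, with a median of -0.23 against -0.001 over all clusters. At an unadjusted p under 0.05 it was negative in 2, against 3.04% of clusters. These were Srf, with -0.29 on stretch and 0.17 on tachycardia (difference -0.47, SE 0.15, adjusted p = 0.74), and Gadd45b, with -0.48 on stretch and 0.27 on tachycardia (difference -0.75, SE 0.29, adjusted p = 0.797). For Nr4a1 the effects of 0.67 and 1.14 differed by -0.47 (SE 0.46, adjusted p = 0.942). Both were called in the fits of 9 arrays, but in the fit of 18 arrays the effect on stretch was not, and the methods' t-test called neither. At an adjusted p under 0.05 limma passed 0 of the 31 genes and 0.0136% of clusters. The count of 2 became 1 without stretch replicate 2 or tachycardia + KB-R7934 replicate 2 and 4 without stretch replicate 3.

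The starting levels of the genes also differed between the control groups, which were cultured on different surfaces, for different times and with or without pacing, so that these are values side by side with no test. Of the 31 genes 25 had a higher mean in 1 Hz control than in static control, with a median difference of 0.36, and in 11 the 1 Hz arrays lay wholly above the static arrays, against 8.91% of clusters. Rgs2 had 10.24, 11.02 and 9.95 in 1 Hz control against 9.38, 8.85 and 9.23 in static control. Fosl1 had 8.51, 9.89 and 8.20 in 1 Hz control against 7.51, 7.77 and 7.88 in static control, and Fosb 7.77, 7.98 and 6.90 in 1 Hz control against 6.26, 6.69 and 6.48 in static control. Egr2 and Arc overlapped between the control groups, with mean differences of -0.10 and -0.07.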

How the data were processed

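Total RNA of 18 samples was hybridised to Rat Gene 2.0 ST arrays. The deposited log2 values of 36685 transcript clusters had been pre-processed and filtered by the authors in Partek Genomics Suite, and the steps of summarisation and normalisation are not given in the sources used here. Probe-level and scan data were not analysed here, so background, saturation and scan batches could not be checked. Gene names came from the platform annotation, in which 14824 clusters have 1 symbol, 829 have several and the others none. Members, gene lists and tests were chosen with earlier results of these data known.

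limma 3.58.1 (R 4.3.3; lmFit, contrasts.fit, eBayes) was fitted to all clusters on the 9 arrays of an experiment without a term for the replicate number. The 1.2-fold and p under 0.05 rule follows the study's legend. Its methods name a two-way analysis of variance with Benjamini-Hochberg correction for the arrays, without the factors, and the legend does not say which p it used, so the p was read as unadjusted here. The labels do not say whether a replicate number marks a shared culture. Deviations of same-numbered arrays correlated above 0.1 in all 3 pairs for stretch with static control and for tachycardia + KB-R7934 with tachycardia. The block is given beside the calls it changed there and in both comparisons with 1 Hz control, where 2 of 3 pairs did so. Otherwise it is given in the closing section. Differences between effects were tested in 1 fit of 18 arrays. A Benjamini-Hochberg adjustment covered all clusters. Precision is limited by having 3 arrays in a group. The script was tested on simulated data. Fos, Jun, Egr1, Nr4a1, Arc and Myc were named in every comparison, with up to 12 called members and 4 genes of the other lists per comparison by smallest p. Further genes of those lists were named after their values were seen. Values of Jund rest on the brighter of 2 clusters. Alternatives were other fits, fold thresholds, filters, centring and leaving out each array. Figures used matplotlib 3.10.9.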

Additional observations from a re-analysis of the deposited data

How the results depend on the processing

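The count of 15 genes called with stretch, all lower, stayed within 1.5 times under every alternative run except a 1.5-fold threshold, which gave 8. With an array left out it ranged from 12 to 16. Without stretch replicate 3 it was 16, of which 14 were lower and 2 higher. At 1.5-fold the other counts were 2 for KB-R7934 on stretch, 0 for tachycardia, 1 for KB-R7934 on tachycardia, 8 for stretch + KB-R7934 and 4 for tachycardia + KB-R7934, both against control. The methods' t-test, named there for comparisons of 2 groups and not for the arrays, gave 1, 0 and 2 for the first 3 of these, and after Benjamini-Hochberg adjustment it passed 0 members in every comparison. All 18 arrays in 1 fit gave 2 for tachycardia and 12 for tachycardia + KB-R7934 against 1 Hz control. With an array left out the counts ran from 4 to 7 for KB-R7934 on stretch, 0 to 5 for tachycardia, 1 to 4 for KB-R7934 on tachycardia, 11 to 15 for stretch + KB-R7934 and 4 to 16 for tachycardia + KB-R7934, both against control, 7 to 17 for stretch minus tachycardia and 1 to 4 for the difference of the inhibitor's effects. With p adjusted over clusters with 1 symbol alone, 2 genes in place of 1 passed 0.05 for stretch + KB-R7934 against static control, and 0 in the other comparisons.

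Correlations of the deviations of same-numbered samples were 0.00647 to 0.295 in the stretch and -0.00511 to 0.264 in the tachycardia experiment, over 0.1 in 7 of 9 pairs in each, and the own number correlated best in 16 of 18 checks in each, a hint of pairing from the data and not from the labels. With the replicate block the counts were 4 for tachycardia (3 genes added), 19 for tachycardia + KB-R7934 against 1 Hz control (12 added, among them Fos, Jun and Egr1) and 5 for the difference of the inhibitor's effects. The block without moderation gave 3 and 13 for the first 2. In no other comparison did the block move the count by more than 1.5 times. It changed no call of stretch against static control, and for KB-R7934 on stretch it added Plk2 and ended Fosb. With the block, or with the trend and robust options, 2 genes passed an adjusted p of 0.05 for stretch + KB-R7934 against static control.

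The median differences with an array left out ran from -0.405 to -0.215 for stretch, -0.078 to 0.032 for KB-R7934 on stretch and -0.353 to -0.22 for stretch + KB-R7934 against static control, -0.21, 0.02 and -0.27 being the values with all arrays. They ran from 0.045 to 0.417 for tachycardia, 0.069 to 0.32 for KB-R7934 on tachycardia and 0.232 to 0.599 for tachycardia + KB-R7934 against 1 Hz control, with 0.22, 0.17 and 0.40 for all arrays. Differences near 0 changed sign with an array left out. For KB-R7934 on stretch these were Fos, from -0.035 without stretch + KB-R7934 replicate 3 to 0.094 without stretch replicate 3, and Jun, from -0.155 without stretch replicate 3 to 0.060 without stretch + KB-R7934 replicate 1, both also changing sign without stretch replicate 2 (-0.021 and 0.055). For KB-R7934 on tachycardia they were Jun, from -0.015 without tachycardia replicate 1 to 0.54 without tachycardia replicate 2, Egr1 at -0.0009 without tachycardia replicate 1, and Myc, from -0.073 without tachycardia + KB-R7934 replicate 1 to 0.0018 without tachycardia + KB-R7934 replicate 2. For tachycardia + KB-R7934 against 1 Hz control Myc ran from -0.025 without 1 Hz control replicate 3 to 0.28 without 1 Hz control replicate 2. The cause of these changes was not tested.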
